A study of Mus musculus with 8 samples.

Results

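The genes encoding SR proteins and heterogeneous nuclear ribonucleoproteins (hnRNPs), the major families of RNA-binding splicing regulators, were followed across all libraries of the series. They were taken from the count table as the protein-coding genes whose GRCm38 symbol is Srsf with a number or begins with Hnrnp, with Tra2a, Tra2b, Ptbp1, Pcbp1 and Pcbp2 added. The rule, which uses no measured value, found 36 of the 53465 genes in the table, among them Srsf12, which had at most 2 counts in any library and was not tested.

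The libraries came from Ba/F3, an established mouse pro-B cell line of the C3H strain background, and hold polyA RNA. The labels give 5 libraries of cells transformed with U2AF35(S34F), numbered 4 to 8, and 3 parental libraries, whose cells have wild-type U2AF35, numbered 1 to 3. U2AF35, the product of U2af1, is the U2 auxiliary factor subunit that reads the AG at the end of introns, and S34F is a recurrent mutation of it in myeloid neoplasms. By its title the series searched the transformed cells for functional genetic variants. Whether the libraries of a group were grown as separate cultures or clones is not in the labels, and the p-values therefore describe the scatter among these libraries alone, which may be technical. The sources used here do not state which promoter drove the S34F form or whether the medium held interleukin-3.

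SR proteins carry RNA-recognition motifs and a tail of arginine-serine repeats. They bind enhancer sequences in exons and promote recognition of the neighbouring splice sites, in part through contacts with U2AF35. The hnRNPs coat nascent RNA, and many of them silence exons or compete with U2AF for pyrimidine tracts. Many genes of both families control their own level by splicing in an exon with a stop codon that exposes the transcript to nonsense-mediated decay. A count per gene cannot tell such a form from the protein-coding one.

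Promoter sequences are shown for Hnrnpu and Hnrnpul1, which belong to the U family with Hnrnpul2, and for Hnrnpa2b1, which had the highest transcript level per length. Of that family only Hnrnpul2 passed the edgeR test given below. Sequences are from RefSeq on GRCm38.p6 and run from 250 bases before the annotated start to 50 bases after it, 5′ to 3′ on the gene's strand. A RefSeq promoter was found for 34 of the 36 genes, all but Hnrnpul2 and Hnrnpll. Capitals mark the GC box GGGCGG (or CCGCCC), the CCAAT box CCAAT (or ATTGG) and the YY1 motif GCCATNTT (or AANATGGC). The Hnrnpu promoter lies at chr1:178337766-178338065 on the minus strand, that of Hnrnpul1 at chr7:25754710-25755009 on the minus strand, and the first of 2 listed for Hnrnpa2b1 at chr6:51469845-51470144 on the minus strand.
Hnrnpu: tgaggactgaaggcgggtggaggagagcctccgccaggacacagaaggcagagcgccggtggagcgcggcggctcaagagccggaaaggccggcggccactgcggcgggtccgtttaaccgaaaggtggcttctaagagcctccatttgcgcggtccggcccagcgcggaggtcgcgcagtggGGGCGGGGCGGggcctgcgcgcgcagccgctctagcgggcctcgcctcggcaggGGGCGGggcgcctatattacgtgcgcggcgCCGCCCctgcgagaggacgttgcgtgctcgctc
Hnrnpul1: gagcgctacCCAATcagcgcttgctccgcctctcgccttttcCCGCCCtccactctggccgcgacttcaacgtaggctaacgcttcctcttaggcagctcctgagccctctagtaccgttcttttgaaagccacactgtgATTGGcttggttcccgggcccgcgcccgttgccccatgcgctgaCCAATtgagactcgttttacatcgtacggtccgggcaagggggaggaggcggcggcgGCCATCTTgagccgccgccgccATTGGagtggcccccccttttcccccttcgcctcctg
Hnrnpa2b1: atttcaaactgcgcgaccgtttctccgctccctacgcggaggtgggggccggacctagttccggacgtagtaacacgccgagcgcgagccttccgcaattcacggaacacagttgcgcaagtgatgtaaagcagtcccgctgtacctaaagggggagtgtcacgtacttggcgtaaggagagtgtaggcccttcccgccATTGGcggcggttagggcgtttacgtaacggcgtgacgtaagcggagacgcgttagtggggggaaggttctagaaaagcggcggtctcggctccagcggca

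These 3 promoters differ in their motifs. The Hnrnpu window has GC boxes starting at positions 184, 189, 238 and 268, counted from 1 at its 5′ end, the first pair of which share a base, and no CCAAT box. In the Hnrnpul1 window CCAAT boxes start at 10, 141, 185 and 264, with 1 GC box at 43 and a YY1 motif at 242. The Hnrnpa2b1 window holds 1 CCAAT box, at 200, and no GC box.

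Over all 47 promoters listed for the 34 genes, GC content was high, with a median of 67.3%, beside 60.3% for promoters of the tested protein-coding genes and 52.7% for all 32851 promoters. A GC box was in 85.1% of these 47 promoters, 60.9% of those of tested protein-coding genes and 35.7% of all. CCAAT boxes were in 48.9%, beside 38.3% and 37.4%. The ETS motif CCGGAAG (or CTTCCGG) was in 27.7%, beside 18.5% and 8.86%, and the NRF1 motif in 17%, beside 10.2% and 4.60%. The YY1 motif was in 12.8%, beside 8.69% and 6.05%. TATAAA (or TTTATA) was in 8.51%, beside 6.92% and 13.6%, and the cyclic-AMP element TGACGTCA in 2.13%, beside 3.11% and 1.79%. Motif matches describe these windows only, since no binding was measured, and promoters of 1 gene can overlap.

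Depth was between 36122062 counts (transformed 7) and 50305573 counts (parental 1), with 24386 to 25149 genes detected. Transformed 4 and transformed 7 stood apart, with mean correlations to the rest of their group of 0.970 and 0.972, where the other libraries were between 0.984 and 0.993. By a lane tag in the labels, lane 6 held transformed 5 and 8 with parental 1 and 3, and lane 7 held transformed 4, 6 and 7 with parental 2. U2af1 itself (chr17:31647081-31658892), whose count cannot separate an introduced copy from the endogenous gene, had 157, 144, 128, 92.0 and 132 CPM in transformed 4, 5, 6, 7 and 8, against 85.3, 98.2 and 91.6 CPM in parental 1, 2 and 3. CPM are counts scaled to library size with TMM factors. At a log2 fold change of 0.51 and SE of 0.16, U2af1 missed the threshold (edgeR adjusted p = 0.108) and passed it in 4 of 16 alternatives. Of 13 pro-B markers only Cd79a and Cd79b had enough counts to test, and Rag1 and Il7r were at 0 in every library, while Pax5, Ebf1 and Igll1 had at most 2 counts. The summed pro-B markers were 54.3 to 77.7 CPM in transformed libraries and 63.3 to 76.0 CPM in parental ones. The mast cell and basophil list, mostly Gata2 and with Kit, Fcer1a and Prss34 at 0, summed to 401 to 1420 CPM in transformed and 663 to 850 CPM in parental libraries, and granulocyte and macrophage markers to 10.5 to 36.9 CPM in transformed and 18.4 to 35 CPM in parental libraries. Cd68, of that list, passed the test, lower in transformed cells. T cell and fibroblast lists stayed under 4 CPM. The part of these markers in the results was not tested.

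The splicing regulators spanned a wide range of transcript levels. Per kilobase of exon, Hnrnpa2b1, an A/B-type protein of RNA transport and splicing, was highest, with 270 ± 44.3 CPM per kb in transformed cells and 269 ± 10.1 CPM per kb in parental cells (SD, n = 5 and 3). Pcbp1, a poly-C-binding protein with KH domains, followed at 169 ± 30.9 CPM per kb in transformed and 145 ± 17.5 CPM per kb in parental cells. Hnrnpa1, which silences exons with UAG motifs, was at 166 ± 17.4 CPM per kb in transformed and 148 ± 2.05 CPM per kb in parental cells. Within either group Pcbp1 and Hnrnpa1 did not differ from each other beyond their spread, and neither did the next genes, Hnrnph1 and Srsf2. Hnrnph1 was at 135 ± 11.9 CPM per kb in transformed and 138 ± 3.53 in parental cells. Srsf2 was at 134 ± 21.4 CPM per kb in transformed and 126 ± 12.1 in parental cells. The lowest tested genes per length were Hnrnpll at 9.41 ± 0.455 CPM per kb in transformed and 9.10 ± 0.753 in parental cells, Srsf4 at 7.58 ± 1.18 in transformed and 7.28 ± 1.14 in parental cells, and Hnrnpr at 5.47 ± 0.358 in transformed and 5.14 ± 0.241 in parental cells. Exon length was the union over all annotated transcripts, 11677 bases for Hnrnpll, 3561 for Srsf4 and 22199 for Hnrnpr. Before division by length, Srsf4 averaged 27.0 CPM in transformed cells, fewer than Hnrnpll (109.9) and Hnrnpr (121). Some 43.0% of the exon length of Srsf4 overlaps Gm12992 on the other strand. Together the 36 genes held between 1.12% of the counts, in transformed 7, and 1.46%, in transformed 5.

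**Figure D1:**
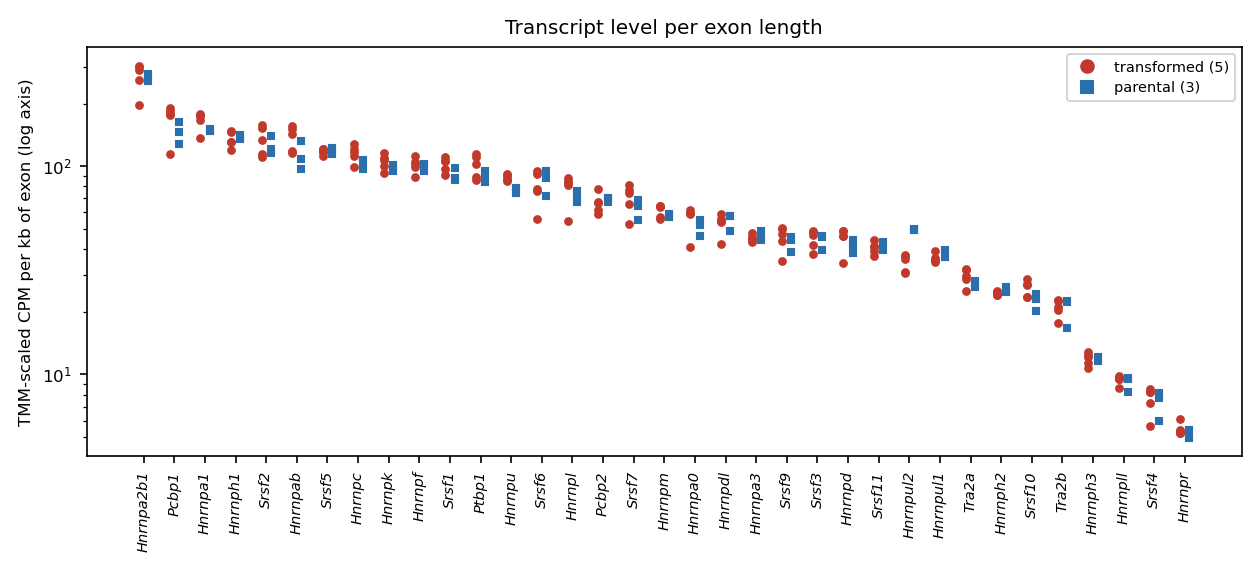
Transcript level of the 35 tested genes in TMM-scaled CPM per kb of exon on a log axis, ordered by the mean of all 8 libraries, with each point 1 library (transformed circles, parental squares). Levels run from 270 CPM per kb for Hnrnpa2b1 to 5.35 for Hnrnpr, and the groups overlap for nearly every gene.

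Which of these regulators differed between U2AF35(S34F)-transformed and parental cells was tested with edgeR over all genes. Of the 35 tested, 1 was lower in transformed cells, Hnrnpul2, beside 2.10% of all 17733 genes tested. None was higher by edgeR's quasi-likelihood test with Benjamini-Hochberg adjustment, beside 0.908% of all genes. At an unadjusted p under 0.05 there were 2 (5.71%), Hnrnpul2 lower and Hnrnpu higher, beside 22.2% of all genes. DESeq2 called 1 higher, Hnrnpu, beside 4.79% of all genes, and 1 lower, Hnrnpul2, beside 5.64%. Log2 fold changes were positive for 25 genes and negative for 10, beside 52.3% positive among all genes tested, with a median of 0.078 beside 0.017. In lane 7 alone, with 1 parental library, 9 of the 35 were positive, with a median of -0.046 beside 0.02 for all genes. In lane 6 alone 28 were positive, with a median of 0.188 beside 0.001.

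The fitted differences were small. Log2 fold changes ran from -0.53 to 0.28, and their median absolute value was 0.085, beside 0.21 for the tested genes with an annotation. Only Hnrnpul2 differed by more than 1.25-fold, 2.86% of the 35 genes beside 33.8% of those tested. For 32 genes (91.4%, beside 44.8%) the 95% interval of the difference lay within 1.5-fold in either direction, and the others were Hnrnpul2, Hnrnpab and Pcbp1. These genes were also more abundant than most, with a median of 321 CPM beside 15.4 CPM, and less variable, with a median coefficient of variation of 9.49% in transformed and 5.28% in parental libraries beside 18.2% and 9.36%.

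**Figure D2:**
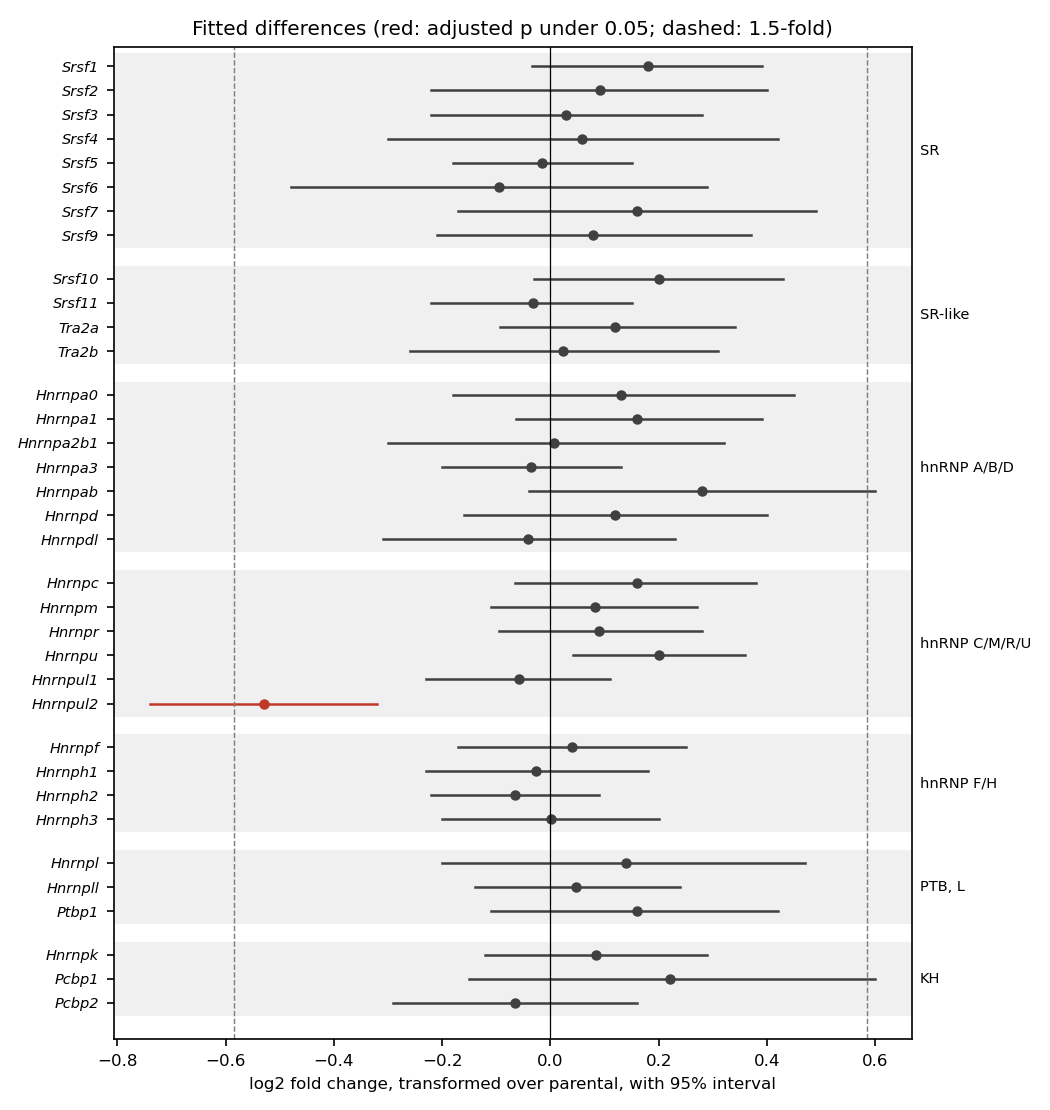
Log2 fold change, transformed over parental, of the 35 tested genes by family, as points with 95% intervals from edgeR (red, adjusted p under 0.05; dashed lines, 1.5-fold). Hnrnpul2, at -0.53, is the only red point, and the other intervals all include 0 except that of Hnrnpu.

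Of the U family, Hnrnpul2 was lower in transformed cells, while Hnrnpul1 and Hnrnpu did not pass the test. Hnrnpul2 (ENSMUSG00000071659, chr19:8820010-8834143, plus strand) encodes a U-like hnRNP that takes part in resection of DNA breaks. It had 222, 263, 254, 219 and 266 CPM in transformed 4, 5, 6, 7 and 8, against 353, 349.7 and 356 CPM in parental 1, 2 and 3. All 5 transformed libraries lay below all 3 parental ones, which were close together, and transformed 4 and 7 were the lowest. Hnrnpul2 fell in transformed cells, to 245 ± 22.8 CPM (SD, n = 5), against 353 ± 3.34 CPM in parental cells (SD, n = 3), with log2 fold change -0.53, SE 0.092, edgeR adjusted p = 0.0273 and a 95% interval from -0.74 to -0.32. In bulk libraries fewer cells of a type and less RNA per cell cannot be told apart.

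The call for Hnrnpul2 was held in 8 of 16 alternatives, with log2 fold changes between -0.60 and -0.41 and adjusted p between 7.03e-05 and 0.9996. With edgeR it was lost without parental 1 (adjusted p = 0.0957), parental 2 (0.118), parental 3 (0.165), transformed 5 (0.0624), transformed 6 (0.0818) or transformed 8 (0.0674), and with lane as a covariate (0.0576). Over all genes edgeR then called 64, 33, 21, 70, 58, 62 and 79 lower, in that order, against 372 in the main fit. Within lane 6 the edgeR log2 fold change was -0.41 (adjusted p = 0.0126), and within lane 7, with 1 parental library, -0.60 (adjusted p = 0.9996).

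Most genes of chromosome 19, which carries Hnrnpul2, had negative fold changes. Of 511 tested genes there, 412 (80.6%) had negative log2 fold changes, with a median of -0.34, and edgeR called 76 lower and 2 higher. Relative to that median Hnrnpul2 was at -0.19. Against the medians of their own chromosomes, the 35 tested genes ran from -0.23 for Hnrnpul1 to 0.23 for Hnrnpab. On chromosome 19, 125 genes (24.5%) were more negative than Hnrnpul2, beside 8.19% of all genes tested. Within 0.1 Mb of its start, 16 of 19 other tested genes were negative, with a median of -0.46. Ttc9c, which starts 0.0007 Mb away, had a log2 fold change of -0.53 (edgeR adjusted p = 0.0505). Its other neighbours Stx5a, a Golgi syntaxin, at -0.60, Taf6l at -0.71 and Ubxn1 at -0.46 passed the test, while Slc3a2, an amino acid transporter chain, was at 0.21 and did not. Within 5 Mb, 200 of 231 genes were negative, with a median of -0.40, and edgeR called 41 lower and 1 higher. These neighbours were chosen after their values were seen, and the part of the chromosome-wide difference in the fall of Hnrnpul2 was not tested.

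**Figure D3:**
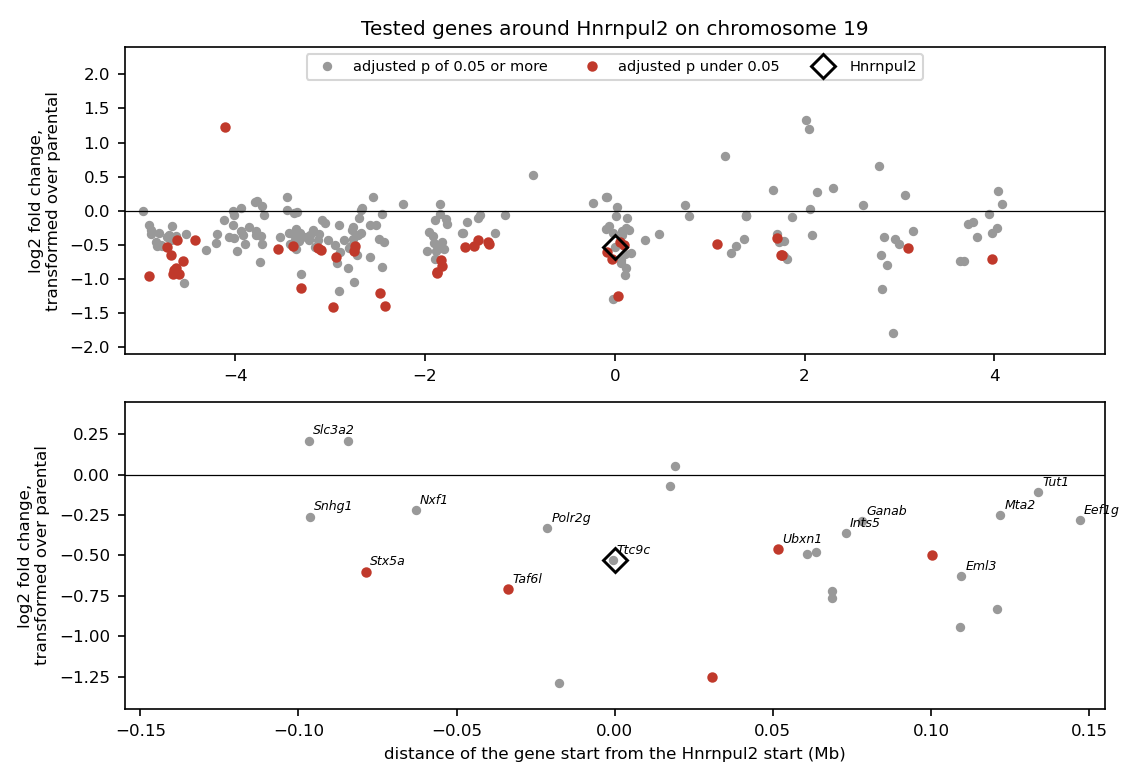
Log2 fold change, transformed over parental, of tested genes against the distance of their start from that of Hnrnpul2 in Mb, over 5 Mb (top) and 0.15 Mb (bottom, with genes of at least 50 CPM named). Red points passed the edgeR test, the open diamond is Hnrnpul2, and 200 of the 231 neighbours in the wide window lie below 0.

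Hnrnpu, in contrast, had higher values in every transformed library. Hnrnpu (ENSMUSG00000039630, chr1:178321108-178337797, minus strand) encodes scaffold attachment factor A, which binds nascent RNA and chromatin and takes part in U2 snRNP maturation. The gene, whose GC-box promoter is printed above, had 990.2, 1059, 1019.7, 1001 and 1049 CPM in transformed 4, 5, 6, 7 and 8, against 861, 910.1 and 903 CPM in parental 1, 2 and 3. The groups did not overlap. The means were 1024 ± 29.9 CPM in transformed cells and 891 ± 26.4 CPM in parental cells (SD), but the difference did not pass (log2 fold change 0.20, SE 0.07, edgeR adjusted p = 0.142). It passed in 3 of 16 alternatives, DESeq2 (adjusted p = 0.0202), lane 6 alone with edgeR (log2 fold change 0.27, adjusted p = 0.0405) and edgeR without transformed 4 and 7 (adjusted p = 0.0175), whereas lane 7 alone gave 0.14 (adjusted p = 0.9996).

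Hnrnpu was the only one of the 35 genes with all transformed libraries above all parental ones, beside 8.07% of all genes tested. Hnrnpul2 was the only one with all of them below, beside 9.69%. Hnrnpul1 (ENSMUSG00000040725, chr7:25721165-25754757, minus strand) encodes a close relative of Hnrnpul2 and had 337, 308, 308, 299.9 and 314 CPM in transformed 4, 5, 6, 7 and 8, against 343, 318 and 318 CPM in parental 1, 2 and 3. Transformed 4 lay among the parental libraries and the other 4 transformed ones just below them. Its log2 fold change was -0.058 (SE 0.076, edgeR adjusted p = 0.705), on a chromosome whose tested genes had a median of 0.17.

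Ratios within a library put the family side by side, on levels per kb of exon. The ratio of Hnrnpul2 to Hnrnpul1 was 0.80, 1.04, 1.0, 0.888 and 1.03 in transformed 4, 5, 6, 7 and 8, against 1.25, 1.34 and 1.36 in parental 1, 2 and 3. No transformed library reached a parental one. The ratio of Hnrnpul2 to Hnrnpu averaged 0.389 ± 0.0263 in transformed cells and 0.647 ± 0.0208 in parental cells, and that of Hnrnpul1 to Hnrnpu 0.411 ± 0.0260 in transformed and 0.491 ± 0.0367 in parental cells (SD, n = 5 and 3). Hnrnpul2, Hnrnpul1 and Hnrnpu lie on chromosomes 19, 7 and 1, whose tested genes had median log2 fold changes of -0.34, 0.17 and 0.026. The part of these chromosome-wide differences in the ratios was not tested. These 3 ratios were chosen after the values were seen and are given as a description, with no test.

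**Figure D4:**
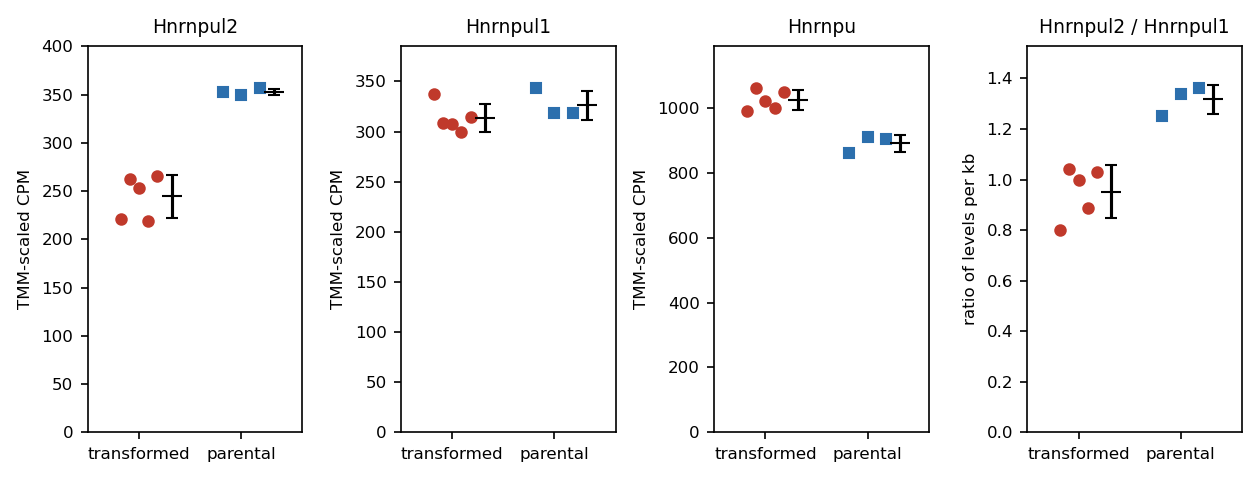
TMM-scaled CPM of Hnrnpul2, Hnrnpul1 and Hnrnpu, and the ratio of Hnrnpul2 to Hnrnpul1 per kb of exon, in 5 transformed (circles) and 3 parental libraries (squares), with bars for the mean and SD. Transformed libraries lie below parental ones for Hnrnpul2 and for the ratio (0.952 ± 0.104 against 1.32 ± 0.0586), and above them for Hnrnpu, while for Hnrnpul1 transformed 4 lies among them and the other 4 below.

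The rest of the C, M, R and U group stayed short of the threshold. Hnrnpc, which binds uridine tracts and competes with U2AF for them in human cells, had 484, 524, 505, 428 and 554 CPM in transformed 4, 5, 6, 7 and 8, against 421, 464 and 459.7 CPM in parental 1, 2 and 3. Transformed 7 lay among the parental libraries and the other transformed ones above them (log2 fold change 0.16, SE 0.098, edgeR adjusted p = 0.385). Hnrnpm and Hnrnpr had log2 fold changes of 0.083 and 0.090. Hnrnpm shares 14.7% of its exon length with March2 on the same strand, so its count is uncertain.

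Of the 8 classical SR protein genes, 6 had positive and 2 negative log2 fold changes, beside 52.3% positive among all genes tested. They ran from -0.095 to 0.18 with a median of 0.069. In lane 7 alone, with 1 parental library, those 6 were negative and Srsf5, negative over all libraries, was positive. None of the 8 passed edgeR's test, with 0 at an unadjusted p under 0.05 (beside 22.2% of all genes) and 0 in DESeq2 (beside 10.4%). Each of the 8 has an annotated transcript subject to nonsense-mediated decay, as have 22 of the 35 tested genes (62.9%), beside 29.1% of tested protein-coding genes. In the pathway lists described below the share was 53.1%. It was 66.7% for SR protein kinases and import, 59.5% for other splicing regulators and 26.7% for decay factors. Srsf1, which binds purine-rich exonic enhancers, had 552, 635, 608, 519.9 and 604 CPM in transformed 4, 5, 6, 7 and 8, against 492, 559 and 499.6 CPM in parental 1, 2 and 3. Transformed 5, 6 and 8 lay above every parental library, and transformed 4 and 7 did not (log2 fold change 0.18, SE 0.094, edgeR adjusted p = 0.307). Srsf7, which links splicing to mRNA export, had 233, 289, 263, 187 and 273 CPM in transformed 4, 5, 6, 7 and 8, against 196, 244 and 228 CPM in parental 1, 2 and 3. Here transformed 7 was the lowest of all libraries and transformed 5 the highest (log2 fold change 0.16, SE 0.15, edgeR adjusted p = 0.56). Srsf2, the SR gene with the highest level per length and itself mutated in myeloid neoplasms, had 338, 468, 450.3, 329 and 396 CPM in transformed 4, 5, 6, 7 and 8, against 344, 412 and 359.7 CPM in parental 1, 2 and 3, with full overlap (log2 fold change 0.091, SE 0.14, edgeR adjusted p = 0.747). Exons of Srsf2 overlap those of Mfsd11 and Mettl23 on the other strand, and the sources used here do not state whether counting used strand.

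None of the 4 tested SR-like regulators passed edgeR's test, with 0 at an unadjusted p under 0.05 and 0 in DESeq2, beside the same shares of all genes. Srsf10, which represses splicing when dephosphorylated, had 165, 189, 202, 164 and 188 CPM in transformed 4, 5, 6, 7 and 8, against 141, 171 and 162 CPM in parental 1, 2 and 3, and transformed 4 and 7 lay within the parental range (log2 fold change 0.20, SE 0.10, edgeR adjusted p = 0.285). Tra2a and Tra2b bind GAA-rich enhancers. Tra2a had 175, 205, 222, 222 and 199 CPM in transformed 4, 5, 6, 7 and 8, against 196, 182 and 186 CPM in parental 1, 2 and 3, with overlap of the groups (log2 fold change 0.12, SE 0.096, edgeR adjusted p = 0.491). Tra2b and Srsf11 had log2 fold changes of 0.024 and -0.033.

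Among the A, B and D proteins the widest difference was that of Hnrnpab, which binds RNA and single-stranded DNA. It had 329, 419, 398, 321 and 434 CPM in transformed 4, 5, 6, 7 and 8, against 269, 368 and 302 CPM in parental 1, 2 and 3. Parental 2 lay above transformed 4 and 7, so the groups overlapped (log2 fold change 0.28, SE 0.14, edgeR adjusted p = 0.281, 95% interval -0.039 to 0.60). Some 29.1% of its exon length overlaps Phykpl on the other strand. Hnrnpa1 had 526, 552, 554, 429 and 559.6 CPM in transformed 4, 5, 6, 7 and 8, against 464, 464 and 475 CPM in parental 1, 2 and 3. Transformed 7 was the lowest of the 8 libraries and the other transformed ones were above every parental library (log2 fold change 0.16, SE 0.10, edgeR adjusted p = 0.375). The pseudogenes Hnrnpa1l2-ps and Hnrnpa1l2-ps2, named after Hnrnpa1, had 561 to 1069 and 1575 to 2893 counts in transformed libraries, and 759 to 870 and 2279 to 2562 counts in parental ones, so reads may be split among them. Hnrnpa2b1, at the top of the levels, had 1703, 2003, 1912, 1301 and 1974 CPM in transformed 4, 5, 6, 7 and 8, against 1698, 1788 and 1828 CPM in parental 1, 2 and 3. Again transformed 7 was lowest, and the log2 fold change was near 0 (0.0059, SE 0.14, edgeR adjusted p = 0.987).

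The F and H proteins, which bind runs of guanine, had differences close to 0, from -0.066 for Hnrnph2 to 0.039 for Hnrnpf. Hnrnph2 was steady, with 106, 105, 109, 105 and 109 CPM in transformed 4, 5, 6, 7 and 8, against 109, 111 and 115 CPM in parental 1, 2 and 3 and 95% bounds of -0.22 and 0.089. Hnrnph1, the most abundant of them per length, averaged 789.9 ± 69.4 CPM in transformed cells and 805 ± 20.6 CPM in parental cells (SD).

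The pyrimidine-tract and L proteins were positive in 3 of 3, beside 52.3% of all genes tested. In lane 7 alone, with 1 parental library, all 3 were negative. Ptbp1, which competes with U2AF at pyrimidine tracts and represses exons, had 420.2, 541, 485, 405 and 523 CPM in transformed 4, 5, 6, 7 and 8, against 397, 449 and 433 CPM in parental 1, 2 and 3. Transformed 5, 6 and 8 were above every parental library and transformed 4 and 7 were not (log2 fold change 0.16, SE 0.12, edgeR adjusted p = 0.469). Hnrnpl, which binds CA repeats, had 504, 522, 494, 324 and 485 CPM in transformed 4, 5, 6, 7 and 8, against 402, 451 and 419 CPM in parental 1, 2 and 3. Transformed 7 was the lowest and the other 4 transformed libraries the highest (log2 fold change 0.14, SE 0.15, edgeR adjusted p = 0.64). Hnrnpll, a regulator of CD45 splicing in lymphocytes, had a log2 fold change of 0.048.

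Of the KH-domain genes, Pcbp1 had 327, 338, 324, 209.8 and 348 CPM in transformed 4, 5, 6, 7 and 8, against 233, 297 and 266 CPM in parental 1, 2 and 3, the same pattern as Hnrnpl (log2 fold change 0.22, SE 0.17, edgeR adjusted p = 0.471, 95% interval -0.15 to 0.60). Hnrnpk, which binds C-rich RNA and DNA, averaged 679.5 ± 56.4 CPM in transformed cells and 641 ± 21.4 CPM in parental cells (SD, log2 fold change 0.085, SE 0.089, edgeR adjusted p = 0.62). Pcbp2 was at -0.065, and 30.2% of its exon length overlaps Map3k12 on the other strand.

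These patterns had a library in common. Transformed 7 was the lowest of the 8 libraries for 20 of the 35 genes (57.1%), beside 27.0% of all genes tested. It lay below the other 4 transformed libraries for 28 genes, 1 of them Hnrnpul2, beside 32.4% of all genes. Its median level was 84.4% of the mean of those 4, beside 98.6% for all genes, and ranged from 62.7% for Pcbp1 to 111% for Tra2a. Parental 1 was the lowest for another 9 genes (25.7%, beside 10.2%). In log2 relative to the parental mean, the median over the 35 genes was 0.034, 0.16, 0.15, -0.12 and 0.15 in transformed 4, 5, 6, 7 and 8, and -0.069, 0.061 and 0.025 in parental 1, 2 and 3. Transformed 5 was the highest library for 16 genes, beside 10.8% of all genes. Transformed 7 was also the shallowest library, and the part of depth in this pattern was not tested.

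**Figure D5:**
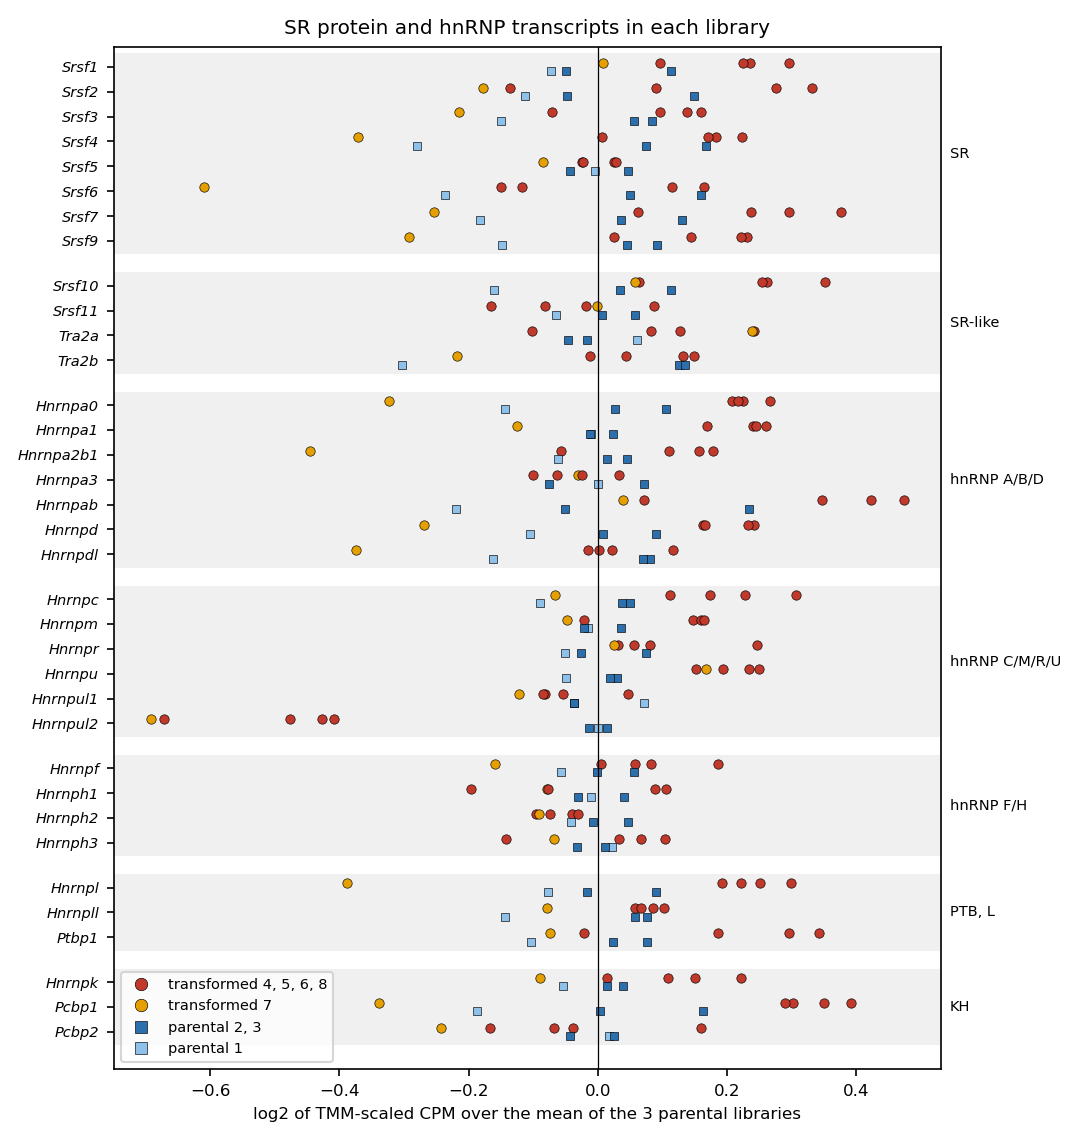
Log2 of TMM-scaled CPM over the mean of the 3 parental libraries, for each tested gene by family, with transformed libraries as circles (transformed 7 in orange) and parental libraries as squares (parental 1 in light blue). The orange circle is the lowest library for 20 of the 35 genes, and Hnrnpul2 has all circles to the left of all squares.

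The count of higher genes varied with the libraries included. Transformed 7 lay below the other 4 transformed libraries for 28 of the 35. The cause of the variation in this count was not tested. Without transformed 4 and 7, a choice made with earlier results known, edgeR called 12 of the 35 genes higher (34.3%), beside 12.8% of all genes tested, and Hnrnpul2 lower, beside 16.1%. The 12 were Srsf1, Srsf7, Srsf10, Hnrnpa0, Hnrnpa1, Hnrnpab, Hnrnpc, Hnrnpd, Hnrnpu, Hnrnpl, Ptbp1 and Pcbp1, with log2 fold changes from 0.21 for Hnrnpd to 0.42 for Hnrnpab. Within lane 6, 10 of those 12 passed (28.6% of the 35), all but Hnrnpa0 and Hnrnpd, beside 9.60% of all genes, and Hnrnpul2 was lower, beside 10.8%. Lane 6 lacks parental 2, whose median for these genes was the highest parental one (0.061, log2 relative to the parental mean). It keeps parental 1, with the lowest (-0.069). Lane 6 holds neither transformed 4 nor 7, and both sets of libraries share transformed 5 and 8 and parental 1 and 3. Within lane 7, which holds both and 1 parental library, edgeR called 0 of all 18636 genes tested, so its 0 calls among the 35 say nothing of these genes. At an unadjusted p under 0.05 there was 1 of the 35, beside 2.72% of all genes, and the median log2 fold change was -0.046, against 0.188 in lane 6. With transformed 4 alone left out, edgeR called 0 of the 35 higher, beside 6.25% of all genes. At an unadjusted p under 0.05 there were 5 of the 35 in either direction, beside 5567 of all 17589 genes tested. With transformed 7 alone left out edgeR called 0 higher, beside 2.87%. At an unadjusted p under 0.05 there were then 12 of the 35 in either direction, beside 4718 of all 17619 genes.

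Other genes of the pathway were covered by lists of 12 kinase, phosphatase and import genes, 39 other splicing regulators and 15 decay factors. Of their 66 genes 64 were tested and edgeR called 0 in either direction, with 10 (15.6%) at an unadjusted p under 0.05, beside 22.2% of all genes, and DESeq2 called 4, beside 10.4%. All transformed libraries lay above all parental ones for 5 of the 64 (7.81%), Tnpo3, Smg1, Smg9, Rbm8a and Casc3, beside 8.07% of all genes. They lay below for 2 (3.12%), Rbm5 and Ppp1ca, beside 9.69%. The median log2 fold changes were -0.038, 0.083 and 0.11. Rbm5, a regulator of exon choice in apoptosis genes, had 158, 175, 177, 207 and 162 CPM in transformed 4, 5, 6, 7 and 8, against 259, 211 and 247 CPM in parental 1, 2 and 3. The difference missed the threshold (log2 fold change -0.44, SE 0.11, edgeR adjusted p = 0.0641). Ppp1ca, a catalytic subunit of protein phosphatase 1, which removes phosphates from SR proteins, lies on chromosome 19 and had 409, 397, 373, 315 and 395 CPM in transformed 4, 5, 6, 7 and 8, against 476, 496 and 497 CPM in parental 1, 2 and 3. Transformed 7 was the lowest library (log2 fold change -0.37, SE 0.097, edgeR adjusted p = 0.0706). Tnpo3, the import receptor of SR proteins, averaged 245 ± 14.2 CPM in transformed cells and 208 ± 5.32 CPM in parental cells (SD), short of the threshold (log2 fold change 0.24, SE 0.079, edgeR adjusted p = 0.13). Elavl1, which stabilises AU-rich mRNA, had a log2 fold change of 0.28 (edgeR adjusted p = 0.175). The decay factors Smg1, the kinase of UPF1, and Smg5 were at 0.25 and 0.33 (edgeR adjusted p = 0.142 and 0.153).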

How the data were processed

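The authors deposited raw read counts per Ensembl gene, not normalised, for 8 polyA RNA-seq libraries of Ba/F3 cells. Per the submitters' processing notes the tools were STAR 2.5.3a and featureCounts 1.5.3, with builds mm10 and GRCm38.p5. The sources used here do not state the strand and multi-mapping settings. Symbols, coordinates and exon lengths came from GENCODE on GRCm38, and 105 IDs, with 0.0212% of counts, were not matched. In R 4.3.3 counts were tested with edgeR 4.0.16, using its robust quasi-likelihood F test (2-sided) after filterByExpr and TMM scaling, with Benjamini-Hochberg adjustment over 17733 genes and a threshold of 0.05. The fit was tested on simulated data. Fold changes are transformed over parental. Library pairs differed by more than counting noise (chi-square per degree of freedom of 18 or more). Named genes were U2af1, genes that passed, the 2 smallest p and the highest level per length in each group, and the 2 smallest p of each pathway list; others were chosen after their values were seen. The genes and lists were chosen with earlier results of these data known. Alternatives were DESeq2 1.42.0, RLE factors, no low-count filter, lane as a covariate or alone, removal of a loess trend on transcript GC content, and leaving out libraries.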

Additional observations from a re-analysis of the deposited data

Results flagged for a closer look

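Among the 5 transformed libraries, 1 library stood far from the other 4 for 7 of the 42 genes examined, by Dixon's criterion for 5 samples, in which the gap to the nearest library exceeds 0.710 of the range. Chance marks about 1 in 20 independent groups, and genes read in the same libraries are not independent. All 7 were among the 35 tested SR protein and hnRNP genes. The share so marked over all genes was not computed, so the 7 cannot be read as a result about these genes. Transformed 7 was the lowest of all libraries for 27.0% of the genes tested and the highest for 26.7%. In 6 of the 7 marked genes the library that stood apart was transformed 7, as the lowest. Pcbp1 was at 209.8 CPM there, against 324 to 348 CPM in the other 4. Hnrnpl was at 324 CPM, against 485 to 522 CPM. Hnrnpa0, which binds AU-rich mRNA, was at 109 CPM, against 158 to 164 CPM. Hnrnpd, a factor in decay of AU-rich mRNA, was at 253 CPM, against 341 to 360.0 CPM, and Hnrnpa1 at 429 CPM, against 526 to 559.6 CPM. Hnrnpll was at 101 CPM, against 111 to 114 CPM. The exception was Hnrnpr, at 135 CPM in transformed 6, the highest, against 116 to 121 CPM in the others.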

How the results depend on the processing

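No paired analysis was possible because the groups share no replicate numbers. The 35 genes' count of higher calls was 0 with edgeR, 1 with DESeq2, 10 in lane 6 and 12 without transformed 4 and 7; the count of lower calls was 0 with lane as a covariate and in lane 7, and 0 to 1 when 1 library was left out. Their median log2 fold change was -0.046 in lane 7, 0.188 in lane 6, 0.148 without transformed 4 and 7, and 0.019 to 0.11 with 1 library left out. Pathway calls were 4 with DESeq2, 19 in lane 6, 1 with the GC trend removed, 19 without transformed 4 and 7, and 0 to 7 with 1 library left out. Over all genes, higher and lower calls were 850 and 1001 with DESeq2, 15 and 79 with lane as a covariate, 1682 and 1883 in lane 6, 0 and 0 in lane 7 (507 at an unadjusted p under 0.05), 248 and 381 with the GC trend removed, 2238 and 2804 without transformed 4 and 7, and 3 to 1100 and 21 to 1628 with 1 library left out. Signs turned in lane 7 for 18 of the 35 genes, among them Hnrnpa0 (-0.038), Hnrnpa2b1 (-0.13), Hnrnpab (-0.080), Hnrnpf (-0.082), Hnrnpk (-0.031), Hnrnpl (-0.039), Pcbp1 (-0.055), Ptbp1 (-0.046), Srsf1 (-0.0031), Srsf2 (-0.15) and Srsf7 (-0.11). The share of all genes whose sign turned was not computed, so the 18 cannot be read as a result about these genes. Of the genes chosen by the naming rule, Hnrnpa2b1 also turned without the filter (-0.0013) and with the GC trend removed (-0.039), Hnrnph1 in lane 6 (0.016) and without transformed 4 and 7 (0.041), and Srsf11 in lane 6 (0.048). With 1 library left out, values ranged over 0 for Hnrnpa2b1 (-0.04 to 0.10, negative without parental 1 or transformed 5, 6 or 8), Hnrnpf (-0.00034 to 0.084, negative without transformed 8), Hnrnph1 (-0.062 to 0.012, positive without transformed 4) and Srsf11 (-0.064 to 0.0046, positive without parental 2). Among single genes 340 values kept sign and side of the threshold, 46 newly passed, 8 no longer passed and 22 turned. The causes were not tested. Lane 7 has 1 parental library, assumed to vary like the others.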
